A study of Homo sapiens with 8 samples.

Results

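Occupancy of gene promoters by the transcription factors Sp1 and CTCF was compared gene by gene, in the osteosarcoma line U-2 OS, from chromatin immunoprecipitation followed by sequencing (ChIP-seq). Each of 19970 protein-coding genes on chromosomes 1 to 22 and X was scored by its annotated transcript starts in the hg38 genome build. A gene was called an Sp1 gene when a peak summit, the point of highest enrichment within a peak, lay within 1 kb of any start in the lists of both Sp1 antibodies, and a CTCF gene when this held in both CTCF replicates. By this rule 2894 genes had Sp1 only, 3504 had CTCF only, 1339 had both and 12233 had neither.

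The Sp1 libraries came from cells labelled as an endogenous knock-in of V5-Halo-SP1, with 1 library for each of 2 rabbit antibodies and 1 library of normal rabbit IgG. The CTCF libraries were 2 replicates of clone C32, a single clone labelled as an endogenous knock-in of FLAG-Halo-CTCF, pulled down with 1 antibody. All cells were crosslinked with 1% formaldehyde for 6 min, and no treatment was compared. The sample titles call the Sp1 cells parental although their genotype label names the knock-in, the series description names wild type cells for CTCF although the labels name the clone, and a supplementary legend of the study places the CTCF peaks in the tagged Sp1 line. The genotype labels were followed. The targets thus differ in cell line, antibody and experiment, and target and experiment cannot be told apart.

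Sp1 is a zinc finger activator that binds GC boxes, short GC-rich elements common in promoters that overlap CpG islands. CTCF, also a zinc finger protein, binds a long motif with a direction, holds cohesin at chromatin loop anchors and at many insulators, and has most of its sites away from promoters. A promoter peak shows where a factor, or chromatin crosslinked to it, was pulled down, and not whether the gene responds to it.

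The sequences at the highest-ranked summits of each class show what the peaks cover. All are hg38 reference sequence, written 5′ to 3′ on the strand of the gene, and span 101 bp around the summit unless they reach an untranslated region, where only 30 bases are shown. In the first 3 genes with Sp1 only, capitals mark the GC box GGGCGG or its reverse complement.
RAD51AP2 Sp1 antibody 1, chr2:17518471-17518571, minus strand: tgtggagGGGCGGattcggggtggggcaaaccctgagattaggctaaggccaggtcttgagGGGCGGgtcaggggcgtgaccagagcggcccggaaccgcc
STAP2 Sp1 antibody 1, chr19:4328524-4328624, minus strand: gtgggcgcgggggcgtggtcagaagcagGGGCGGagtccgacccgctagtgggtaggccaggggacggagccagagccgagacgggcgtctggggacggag
GRTP1 Sp1 antibody 1, chr13:113364295-113364395, minus strand: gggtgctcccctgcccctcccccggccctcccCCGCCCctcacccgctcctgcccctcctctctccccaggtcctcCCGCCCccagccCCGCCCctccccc
The windows of RAD51AP2, STAP2 and GRTP1 held 2, 1 and 3 GC boxes. The RAD51AP2 summit lay at -81 bp from its only start, that is upstream. The STAP2 summit, at a gene for a signalling adaptor, was in an intron, 199 bp downstream of an alternative start.

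For CTCF only, the windows of PTPRN and MYO7A, which ranked next to the top of the class, are shown, and capitals mark the best match to a 12-base CTCF core, allowing 1 mismatch.
PTPRN CTCF replicate 1, chr2:219298841-219298941, minus strand: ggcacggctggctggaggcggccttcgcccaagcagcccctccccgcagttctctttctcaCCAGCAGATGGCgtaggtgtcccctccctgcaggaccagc
MYO7A CTCF replicate 1, chr11:77127255-77127355, plus strand: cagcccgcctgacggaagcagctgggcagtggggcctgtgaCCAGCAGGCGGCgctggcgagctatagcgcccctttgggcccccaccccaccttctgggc
The match was exact in PTPRN, which encodes a phosphatase-like protein of secretory granules, and had 1 mismatch in MYO7A, the gene of a hair cell myosin. Both pointed along the gene. The PTPRN summit was intronic and 601 bp downstream of an alternative start, and the MYO7A summit lay at -941 bp from the nearest start, close to the 1 kb limit.

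For genes with both targets, 3 genes are shown, chosen after their values were seen because they span the range of arrangements. Capitals mark the GC box at the RFX2 Sp1 summit, the CTCF core at the CTCF summits of RFX2 and SF3A3, and the word TCGCGAGA at the CDK12 Sp1 summit.
SF3A3 Sp1 antibody 1, chr1:37990048-37990148, minus strand: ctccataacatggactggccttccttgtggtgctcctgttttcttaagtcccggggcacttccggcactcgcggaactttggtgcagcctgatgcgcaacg
SF3A3 CTCF replicate 1, chr1:37990136-37990236, minus strand: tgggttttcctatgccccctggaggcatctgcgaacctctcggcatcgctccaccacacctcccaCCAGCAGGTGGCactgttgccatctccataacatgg
RFX2 Sp1 antibody 1, chr19:6199576-6199676, minus strand: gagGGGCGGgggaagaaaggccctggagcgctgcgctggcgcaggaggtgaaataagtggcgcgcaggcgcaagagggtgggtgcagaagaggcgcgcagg
RFX2 CTCF replicate 1, chr19:6048929-6049029, minus strand: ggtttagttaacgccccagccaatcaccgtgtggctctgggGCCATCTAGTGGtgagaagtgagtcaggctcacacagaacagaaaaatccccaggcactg
CDK12 Sp1 antibody 1, chr17:39461321-39461421, plus strand: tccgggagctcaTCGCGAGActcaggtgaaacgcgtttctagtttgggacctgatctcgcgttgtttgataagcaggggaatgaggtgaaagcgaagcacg
SF3A3 encodes a subunit of the U2 spliceosomal particle, and its antibody 1 and replicate 1 summits were 88 bp apart. The Sp1 window of SF3A3 held no GC box, and its CTCF window held an exact core. RFX2 encodes a transcription factor of ciliogenesis and spermatogenesis. Its strongest antibody 1 and replicate 1 summits were 151 kb apart. Its strongest antibody 2 and replicate 2 summits were 62.5 kb apart, since the strongest summits of the antibodies lay near different starts of the gene. The Sp1 window at CDK12, the gene of a kinase of the RNA polymerase II tail, held no GC box either.

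The 4 lists covered promoters to different extents. An antibody 1 summit lay near 7481 genes, 37.5% of all genes, an antibody 2 summit near 4825 genes, 24.2%, a CTCF replicate 1 summit near 6486 genes, 32.5%, and a replicate 2 summit near 4975 genes, 24.9%. Of the peaks on these chromosomes, 76.8% and 68.8% of the Sp1 peaks lay near a coding start, against 16.6% and 14.7% of the CTCF peaks. Thus similar numbers of genes were reached from Sp1 lists of 8706 and 5973 peaks and CTCF lists of 42765 and 36082 peaks. The IgG list had a summit near 5 genes. The peak lists hold no read counts, and the read numbers of the study were not used here, so depth was not weighed, and a missing summit says only that no peak passed the authors' threshold there.

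Over all genes 4233, or 21.2%, were Sp1 genes and 4843, or 24.3%, were CTCF genes, and all 4 lists met at 6.71%. These shares are the background against which every count below is read. The class neither was not empty of peaks. It held 2278 genes with antibody 1 but not antibody 2, 412 with antibody 2 but not antibody 1, 1185 with CTCF replicate 1 but not 2 and 90 with replicate 2 but not 1. Another 8756 genes, 43.8% of all genes, had no summit in any list. Likewise 970 of the genes with CTCF only carried an antibody 1 summit that antibody 2 lacked, and 458 of those with Sp1 only carried a CTCF replicate 1 summit.

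CTCF was found more often at genes with Sp1 than at genes without. Of the Sp1 genes, 31.6% were CTCF genes (95% Wilson interval 30.2 to 33.0%), against 22.3% of the other genes (21.6 to 22.9%), a ratio of 1.42. In the other direction, 27.6% of CTCF genes and 19.1% of the remaining genes were Sp1 genes. The intervals here and below cover counting error only. Neighbouring genes can share a peak and each Sp1 antibody has 1 library, so no p-value was computed. Genes with a summit in only 1 antibody list stood close to those with both, with CTCF shares of 29.9% for antibody 1 (28.3 to 31.5%) and 30.4% for antibody 2 (26.8 to 34.2%), whereas genes with no Sp1 summit had 19.8%.

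The difference was largest in genes with few starts and small over genes with many. A gene with more starts has more windows in which either factor can be scored. Among genes with 1 start, 24.2% of the 227 Sp1 genes (19.1 to 30.2%) and 8.23% of the other genes (7.28 to 9.29%) were CTCF genes, a ratio of 2.94. The ratio was 1.79 for 2 to 3 starts and 1.25 for 4 to 7 starts. With 8 or more starts the shares were 34.7% and 33.7%, with intervals that overlapped and a ratio of 1.03. Genes with both targets had a median of 9 starts, those with Sp1 only or CTCF only 7 each, and those with neither 4.

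The CpG content of the promoter moved with the difference as well. The CpG ratio is the observed number of CpG dinucleotides over that expected from the base composition, computed here from 250 bp before to 50 bp after the canonical start, the 1 representative start that the annotation names. In the lowest quartile group of genes by CpG ratio, up to 0.420, 34.6% of the 159 Sp1 genes (27.6 to 42.3%) and 11.7% of the other genes were CTCF genes, a ratio of 2.96. In the second quartile group the ratio was 1.33. In the third quartile group the shares were 30.9% and 29.9%, a ratio of 1.03, and in the highest quartile group 32.8% and 27.9%, a ratio of 1.17. Where both were high, in genes with 8 or more starts and a CpG ratio over 0.6, the shares were 34.3% (32.3 to 36.4%) and 35.6% (34.1 to 37.1%). With 8 or more starts and a CpG ratio up to 0.6 they were 38.6% (31.9 to 45.8%) and 26.9% (24.3 to 29.6%), a ratio of 1.44, so the difference remained in genes with many starts where CpG content was low. With 1 start the ratio was 1.70 at a CpG ratio over 0.6, and 2.09 below it, where only 2 of 22 Sp1 genes had CTCF. With 2 to 7 starts the ratios were 1.16 and 2.37. Scored at the canonical start alone, the CTCF shares were 21.8% with Sp1 and 14.1% without. Within CpG ratios over 0.6 they were 21.8% (20.5 to 23.2%) and 19.04% (18.3 to 19.8%), a ratio of 1.14. Within CpG ratios up to 0.6 they were 22.0% of 223 Sp1 genes (17.0 to 27.9%) and 6.39% of the others (5.81 to 7.02%), a ratio of 3.44. These strata were chosen with earlier results known, and the parts that start number and CpG content play were not tested further.

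**Figure D1:**
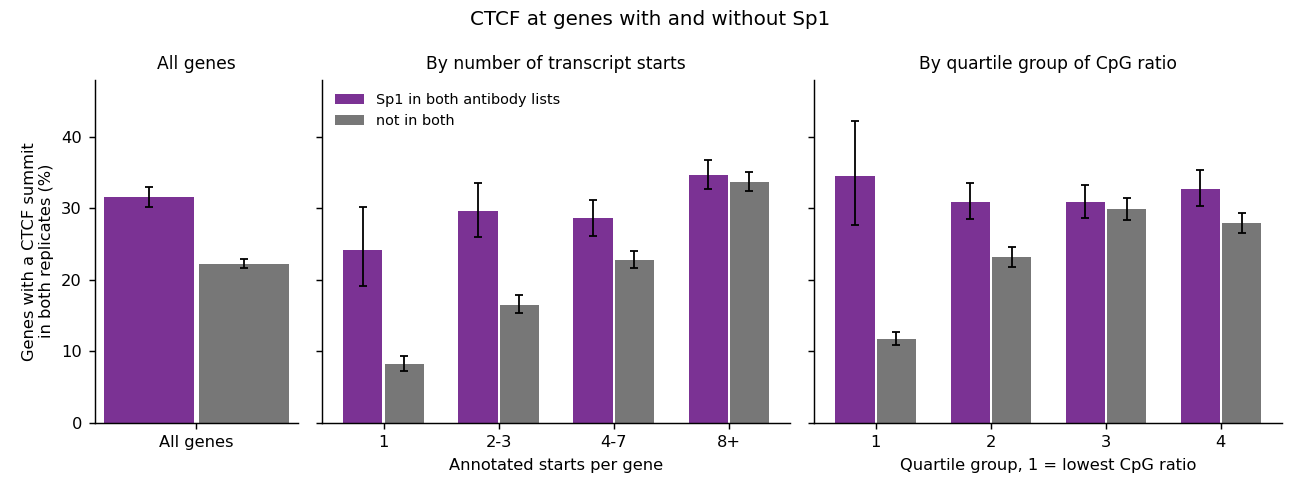
Share of genes with a CTCF summit in both replicates (percent, vertical axis) among genes with Sp1 in both antibody lists (purple) and all others (grey), for all genes, by number of annotated starts and by quartile group of promoter CpG ratio. Bars are shares and whiskers 95% Wilson intervals. The shares stood 2.94 times apart at 1 start and came together at 8 or more starts.

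The promoters of the classes differed in sequence, which the rule did not use. Of canonical starts with Sp1 only, 91.3% had a CpG ratio over 0.6, of those with both 90.3%, of those with CTCF only 77.0% and of those with neither 56.5%. Over all canonical starts the share was 67.4%. Median GC content was 63.7% for Sp1 only, 65.3% for both and 67.7% for CTCF only (67.0 to 68.0%), so the CTCF only promoters were the most GC-rich although fewer of them had a high CpG ratio. The GC box GGGCGG, sought on both strands, was present at 76.4% of starts with Sp1 only, 79.5% with both, 68.1% with CTCF only and 53.8% with neither, against 61.3% of all 19970 starts.

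Within CpG-rich promoters the GC box shares of the classes lay close together, with both slightly above neither. Among starts with a CpG ratio over 0.6, it was present at 79.0% with Sp1 only (77.4 to 80.5%), 79.5% with CTCF only (78.0 to 81.0%), 82.4% with both (80.1 to 84.4%) and 79.1% of 6908 with neither (78.1 to 80.0%). The number of GC boxes did not order Sp1 occupancy either. In these CpG-rich starts, 27.8% of genes with no GC box, 32.6% with 1, 33.1% with 2, 27.1% with 3 and 21.8% with 4 or more were Sp1 genes. The share with 4 or more GC boxes (20.4 to 23.4%) lay below the share with none (26.1 to 29.5%). Over all starts, where those without a GC box are mostly poor in CpG, the Sp1 share was 12.4% with no GC box and 22.0% with 4 or more. Overlapping GC boxes were each counted.

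Other promoter words did separate Sp1 from CTCF genes in CpG-rich promoters. CCAAT, the box bound by NF-Y, was present at 47.6% of CpG-rich starts with Sp1 only and 43.4% with both, against 26.1% with CTCF only and 31.98% with neither. CCGGAA, a word bound by ETS family factors, was present at 43.2% with Sp1 only and 38.5% with both, against 24.7% with CTCF only and 25.7% with neither. The longer word TCGCGAGA was found at 3.71% with Sp1 only, 4.55% with both, 1.85% with CTCF only and 1.93% with neither. GCATGCGC, an element of the NRF1 type, stood between 5.71% and 6.12% in all 4 classes. Over all promoters, CCAAT was held by 36.0%, CCGGAA by 22.8%, TCGCGAGA by 1.72% and GCATGCGC by 4.25%. The TATA word TATAAA was found at 3.86% of CpG-rich starts with Sp1 only (3.19 to 4.67%), 4.05% with both, 4.596% with CTCF only (3.87 to 5.45%) and 5.17% with neither (4.67 to 5.72%), with intervals that mostly overlapped. Over promoters of any CpG ratio it stood at 4.35% with Sp1 only, 4.78% with both, 6.42% with CTCF only and 12.5% with neither, and at 9.73% of all promoters. A word in the window is a description of the sequence and was not tested as a bound site.

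The CTCF core behaved differently from the GC box. With 1 mismatch allowed, it was present at 13.1% of canonical starts with CTCF only and 8.36% with both, against 3.32% with Sp1 only, 3.597% with neither and 5.54% of all starts. Read the other way, CTCF genes made up 22.7% of genes with no core at the canonical start, 48.5% of those with a core of 1 mismatch and 84.0% of the 94 genes with an exact core (75.3 to 90.1%). For the same 3 groups the Sp1 shares were 21.3%, 18.8% and 19.1%.

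**Figure D2:**
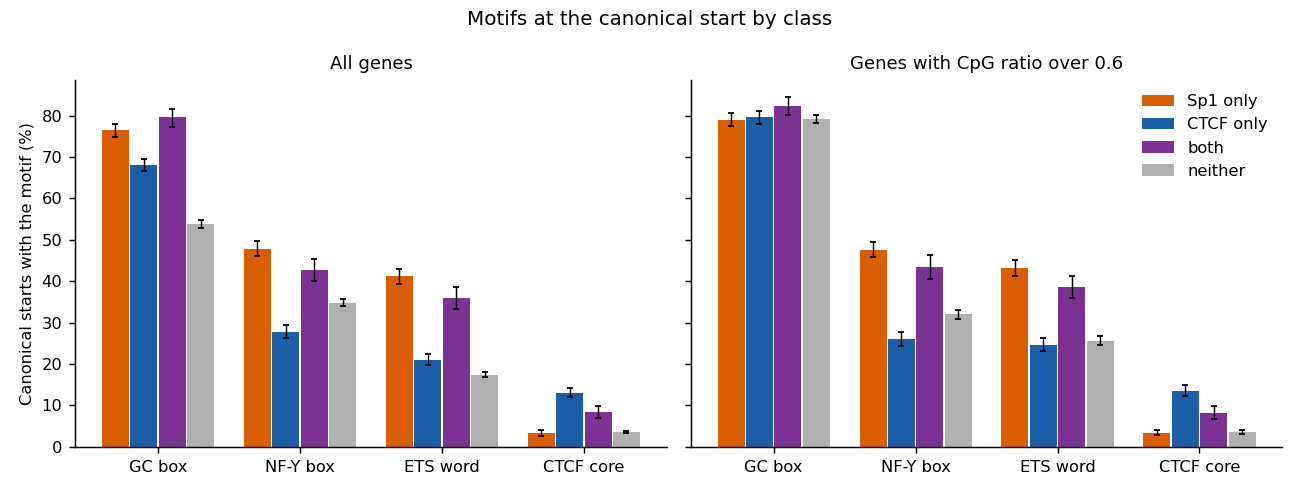
Share of canonical starts (percent, vertical axis) that hold a GC box, an NF-Y box (CCAAT), an ETS word (CCGGAA) or a CTCF core with up to 1 mismatch, in the 4 classes, for all genes (left) and for genes with a CpG ratio over 0.6 (right). Whiskers are 95% Wilson intervals. At CpG-rich starts the GC box bars stand between 79.0 and 82.4%, whereas the NF-Y and ETS bars of the classes with Sp1 stand above those of CTCF only and neither.

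Motifs at the summits themselves differed by target. Sp1 summits also lay nearer to starts than CTCF summits, and no background matched for position was computed. Within 50 bp of the antibody 1 summit, a GC box was found in 58.3% of genes with Sp1 only and 60.8% with both, and at the antibody 2 summit in 46.7% and 49.1%. At CTCF replicate 1 summits it was found in 22.3% with CTCF only and 24.6% with both. CCAAT lay at 28.6% of antibody 1 summits with Sp1 only and at 7.56% of replicate 1 summits with CTCF only, and CCGGAA at 18.3% and 4.51%. The antibodies differed in TCGCGAGA, found at 2.97% of antibody 1 summits (2.41 to 3.66%) and 0.795% of antibody 2 summits (0.530 to 1.19%) of the same genes with Sp1 only.

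The CTCF core was less common at CTCF summits of genes that also had Sp1. It was found at 42.9% of replicate 1 summits with CTCF only (41.3 to 44.5%) and 34.7% with both (32.2 to 37.3%), and replicate 2 gave 42.5% and 34.7%. The CTCF enrichment of the classes was nevertheless similar. The median of the deposited fold enrichment, a linear ratio of pulldown to control signal, was 43.7 with CTCF only (41.1 to 46.0) and 40.4 with both (35.6 to 43.4) in replicate 1, and 20.9 and 19.9 in replicate 2. For Sp1 the median fold was 10.7 with Sp1 only (10.4 to 10.9) and 11.7 with both (11.1 to 12.03) in antibody 1, and 7.08 and 7.11 in antibody 2. Each gene entered with its strongest summit, and folds are comparable within a library only.

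Strength of one factor did not order the presence of the other in a way shared by libraries. From the strongest to the weakest quartile group of antibody 1 folds, 35.2%, 32.7%, 29.0% and 29.6% of Sp1 genes had CTCF, whereas for antibody 2 the shares were 30.4%, 33.2%, 27.5% and 35.4%. Over the quartile groups of CTCF replicate 1, 28.6%, 24.5%, 26.2% and 31.3% of CTCF genes had Sp1, and replicate 2 gave 29.1%, 25.2%, 24.2% and 32.1%. In both CTCF replicates the outer quartile groups were above the middle ones, with intervals that partly overlapped.

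Summit positions differed by target and hardly by class. Antibody 1 summits lay upstream of the nearest start in 81.8% of genes with Sp1 only and 79.6% with both, and within 100 bp of it in 60.4% and 56.0%. Their median distance was 74 bp with Sp1 only and 87 bp with both. Replicate 1 summits of CTCF lay within 100 bp in 30.5% with CTCF only and 30.2% with both, at median distances of 221 bp and 216 bp, and 27.6% and 24.4% were over 500 bp away. CTCF summits were therefore spread more widely over the 2-sided window than Sp1 summits, although both were most frequent just before the start. The 100 bp before the start held 22.97% of replicate 1 summits with CTCF only and 48.1% of antibody 1 summits with Sp1 only. The start used differed too. In genes with Sp1 only, 92.0% had the Sp1 call at the canonical start itself, whereas in genes with CTCF only 63.1% had the CTCF call there. The 1 kb limit was near the edge of the Sp1 distribution, with 34 genes reaching the call between 900 and 1000 bp and 25 falling between 1000 and 1100 bp, but it cut through that of CTCF, with 178 and 189 genes.

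**Figure D3:**
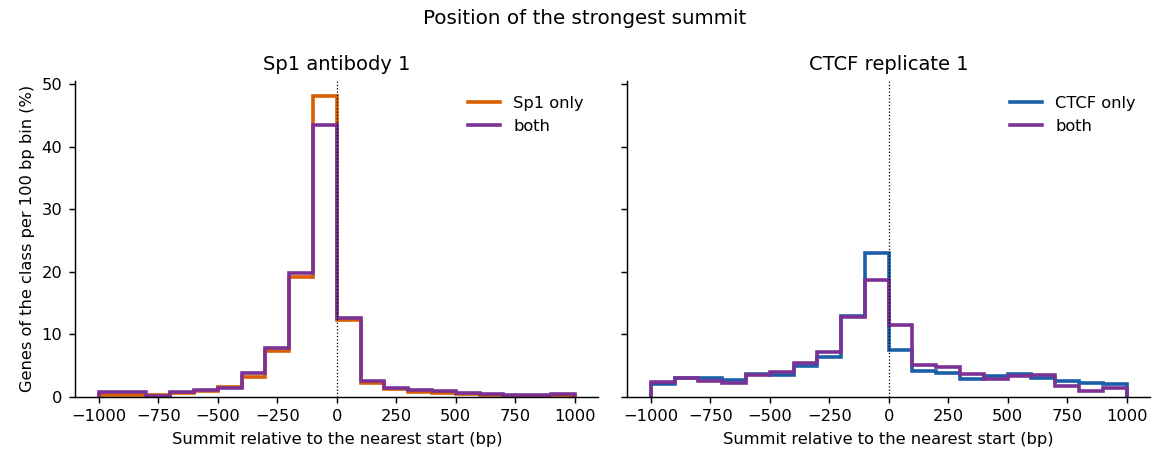
Position of the strongest summit relative to the nearest start (bp, horizontal axis, upstream negative) as the percentage of genes per 100 bp bin, for Sp1 antibody 1 in genes with Sp1 only and both (left) and CTCF replicate 1 in genes with CTCF only and both (right). Of genes with Sp1 only, 48.1% fall in the 100 bp before the start, against 22.97% of genes with CTCF only.

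The direction of the CTCF core changed across the start. The core was counted as pointing along the gene when the match in its CCA to GGC orientation lay on the strand of the gene. In genes with CTCF only and a core at the replicate 1 summit, it pointed along the gene in 60.7% of 972 summits upstream of the start (57.6 to 63.7%) and 41.4% of 531 summits downstream (37.3 to 45.7%). In genes with both, the shares were 57.7% (51.9 to 63.4%) and 40.9% (33.98 to 48.2%). Replicate 2 gave 59.7% and 42.3% with CTCF only. Over all CTCF genes, with each summit counted once per side of a start and leaving out summits that face genes on both strands, the shares were 60.3% of 1163 upstream and 41.0% of 692 downstream, close to the shares over genes.

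In genes with both targets the summits were usually near each other but seldom coincided. The nearest antibody 1 and replicate 1 summits of a gene were a median of 378 bp apart (351 to 416 bp). They were within 100 bp of each other in 17.8% of the 1339 genes and within 500 bp in 58.9%, and the peak intervals overlapped in 71.5%. A single start had both summits within 1 kb in 1078 genes, 80.5%. In 197 genes, 14.7%, the summits were over 5 kb apart, at different starts of the gene. The CTCF summit was downstream of the Sp1 summit, along the gene, in 52.5% (49.8 to 55.2%), so neither order prevailed. At the canonical start alone, 61.7% of these genes had both calls.

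**Figure D4:**
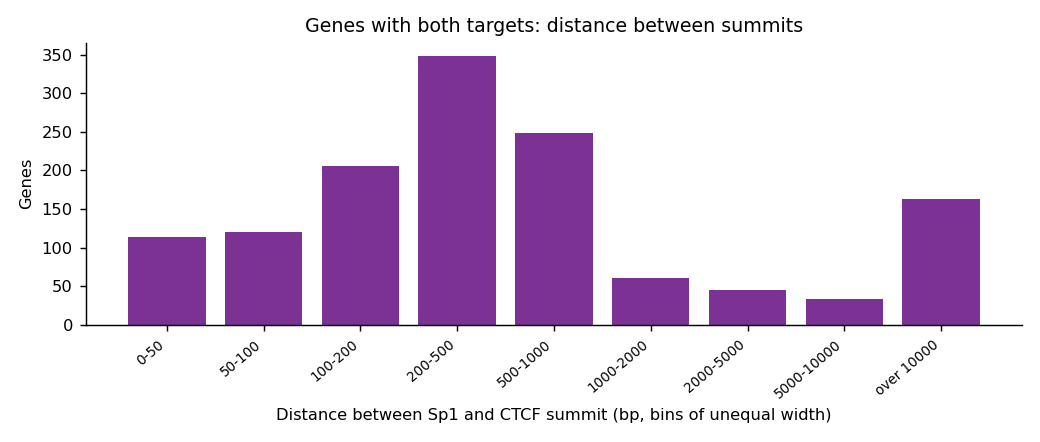
Number of genes (vertical axis) by distance between the nearest antibody 1 and replicate 1 summits (bp, horizontal axis, bins of unequal width) in the 1339 genes with both targets. A second group of 163 genes has summits over 10 kb apart.

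Gene neighbourhood set Sp1 apart from CTCF. A start of another coding gene on the opposite strand lay within 1 kb of the canonical start in 32.6% of genes with Sp1 only (30.9 to 34.3%) and 26.1% with both, against 10.6% with CTCF only (9.67 to 11.7%), 9.08% with neither and 13.9% of all genes. Of the 2777 genes in such an arrangement 46.6% were Sp1 genes, against 17.1% of the remaining genes. The CTCF shares were 26.0% and 24.0%. Within these paired genes the CTCF share was 27.1% with Sp1 and 25.1% without, with overlapping intervals, whereas in the remaining genes it was 33.6% and 22.0%. Genes also shared peaks. The 2894 genes with Sp1 only rested on 2356 distinct antibody 1 peaks and the 3504 genes with CTCF only on 3299 replicate 1 peaks, and how much of this comes from opposite-strand pairs was not tested. Genes with CTCF only were also longer, at a median of 40.6 kb against 29.9 kb with Sp1 only, 29.6 kb with both and 23.6 kb with neither.

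Chromosomes differed more in Sp1 than in CTCF. The share of Sp1 genes was highest on chromosome 19, at 30.5% (28.2 to 32.9%), and lowest on X, at 9.20% (7.44 to 11.3%). Chromosome 19 had an Sp1 share well above and a CTCF share, 21.1% (19.1 to 23.2%), below the background. Chromosome X was low for CTCF as well, at 17.1%, as were chromosomes 13 and 21 for both targets, with Sp1 shares of 12.1% and 12.7% and CTCF shares of 17.3% and 13.6%.

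The classes fell differently on gene families, read against the shares over all genes of 14.5% for Sp1 only, 17.5% for CTCF only, 6.71% for both and 61.3% for neither. Genes of basic cell functions were rich in Sp1. Among the 79 cytosolic ribosomal protein genes 49 were Sp1 genes and 28 CTCF genes, and 20 had both. RPS7 had Sp1 only, with folds of 13.3 and 129 in the antibody lists, and RPL10A had both, with Sp1 folds of 61.8 and 4.44 and CTCF folds of 199.6 and 117. Of 77 mitochondrial ribosomal protein genes 40 were Sp1 genes, and 21 were CTCF genes. MRPL44, whose folds were 12.1 and 155 in the antibody lists, had Sp1 only, and MRPS2 had CTCF only. The 75 splicing and hnRNP genes included 44 Sp1 genes and 29 CTCF genes, with 19 in both.

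Other housekeeping lists were less uniform. They were rich in CpG too, with a ratio over 0.6 at 81 of 89 oxidative phosphorylation genes and 43 of 48 proteasome genes, against 67.4% of all genes. Of 74 genes of RNA polymerase II, its general factors and Mediator 33 were Sp1 genes and 26 CTCF genes, with POLR2C, a polymerase subunit, in CTCF only at folds of 218 and 94.6. Of 89 oxidative phosphorylation genes 33 were Sp1 genes and 25 CTCF genes, and of 48 proteasome genes 17 and 16. The 20 cytosolic aminoacyl-tRNA synthetase genes held 10 Sp1 genes and 8 CTCF genes, and each of the 20 had a summit in at least 1 list. Of 40 DNA replication genes 18 were Sp1 genes and 10 CTCF genes, and of 24 mitosis genes 12 and 4. Among 16 cholesterol synthesis and uptake genes 6 had Sp1, 2 had CTCF and none had both.

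The nucleotide synthesis genes include classic Sp1 targets. Of 19 genes 8 were Sp1 genes and 8 were CTCF genes, with 5 in both. Apart from the Sp1 genes, 8 had an antibody 1 summit without antibody 2, against 16.3% of all genes. The same pattern was found at 8 of 16 cholesterol genes, 16 of 48 proteasome genes and 14 of 40 DNA replication genes. DUT, which removes dUTP, was among the nucleotide synthesis genes with antibody 1 alone, at a fold of 21.7. TK1, thymidine kinase, had both targets, with Sp1 folds of 13.9 and 5.86 and CTCF folds of 45.5 and 31.9. RRM1 and RRM2, the subunits of ribonucleotide reductase, fell in Sp1 only and both.

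Among the genes of the factors themselves, SP1 had both targets, with Sp1 folds of 19.6 and 12.3 and CTCF folds of 12.2 and 8.76. SP2, SP3 and SP4 had Sp1 only. Of the 27 Sp and KLF genes 15 had no summit in any list, against 43.8% of all genes. CTCF was in the class neither because its antibody 1 summit, with a fold of 8.65, and its replicate 1 summit, with a fold of 17.7, each lacked a partner. The cohesin subunit genes split, with SMC1A in Sp1 only, STAG1 and STAG2 in CTCF only, and RAD21 and SMC3 in neither, although both had an antibody 1 summit. ZNF143, a promoter-binding factor, had Sp1 only with folds of 61.4 and 29.6.

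Gene families of development and differentiation held more CTCF genes than Sp1 genes. Against 24.3% of all genes, the CTCF share was 67.9% of clustered protocadherins (54.5 to 78.9%), 29.5% of collagens (18.2 to 44.2%) and 17.9% of HOX genes (8.98 to 32.7%). The 53 clustered protocadherins, cell surface proteins of neurons, included 36 genes with CTCF only and none with Sp1 in either antibody list. Their CTCF folds ranged from 6.46 to 142 in replicate 1, with a median of 31.7 against 42.5 over all CTCF genes. A CpG ratio over 0.6 was found at 26 of the 53, against 67.4% of all genes. Of 44 collagen genes 13 were CTCF genes and 1 an Sp1 gene, COL1A1, the main bone collagen chain, with Sp1 folds of 10.4 and 4.51 and CTCF folds of 201 and 114. The 39 HOX genes, which pattern the body axis, held 7 CTCF genes and 2 Sp1 genes. Of the 39 HOX genes 33 had a CpG ratio over 0.6, against 67.4% of all genes, and 21 had no summit in any list, against 43.8%. The 7 HOX genes with CTCF had a median replicate 1 fold of 146.

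Tissue-restricted families were nearly free of both. A CpG ratio over 0.6 was rare in them, at 9 of 415 olfactory receptor, 5 of 149 keratin and 16 of 104 cytokine and chemokine genes. Over all genes the share was 67.4%. Of 415 olfactory receptor genes 404 had no summit in any list, and 7 were CTCF genes. Of 149 keratin and keratin-associated genes 5 were CTCF genes and 1 an Sp1 gene, KRT8. Of 104 cytokine and chemokine genes 11 were CTCF genes and 2 Sp1 genes, and of 40 beta-defensin genes 2 were CTCF genes. Among the genes named ZNF on chromosome 19, mostly zinc finger repressors, 82 of 246 were Sp1 genes and 39 CTCF genes, whereas of the 262 on other chromosomes 69 and 60 were. The 69 replication-dependent histone genes held 16 Sp1 genes and 9 CTCF genes, and of 14 genes of AP-1 and immediate early factors 5 were Sp1 genes and 5 CTCF genes. Members of a family often lie close together and can share peaks, so these counts were not tested.

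**Figure D5:**
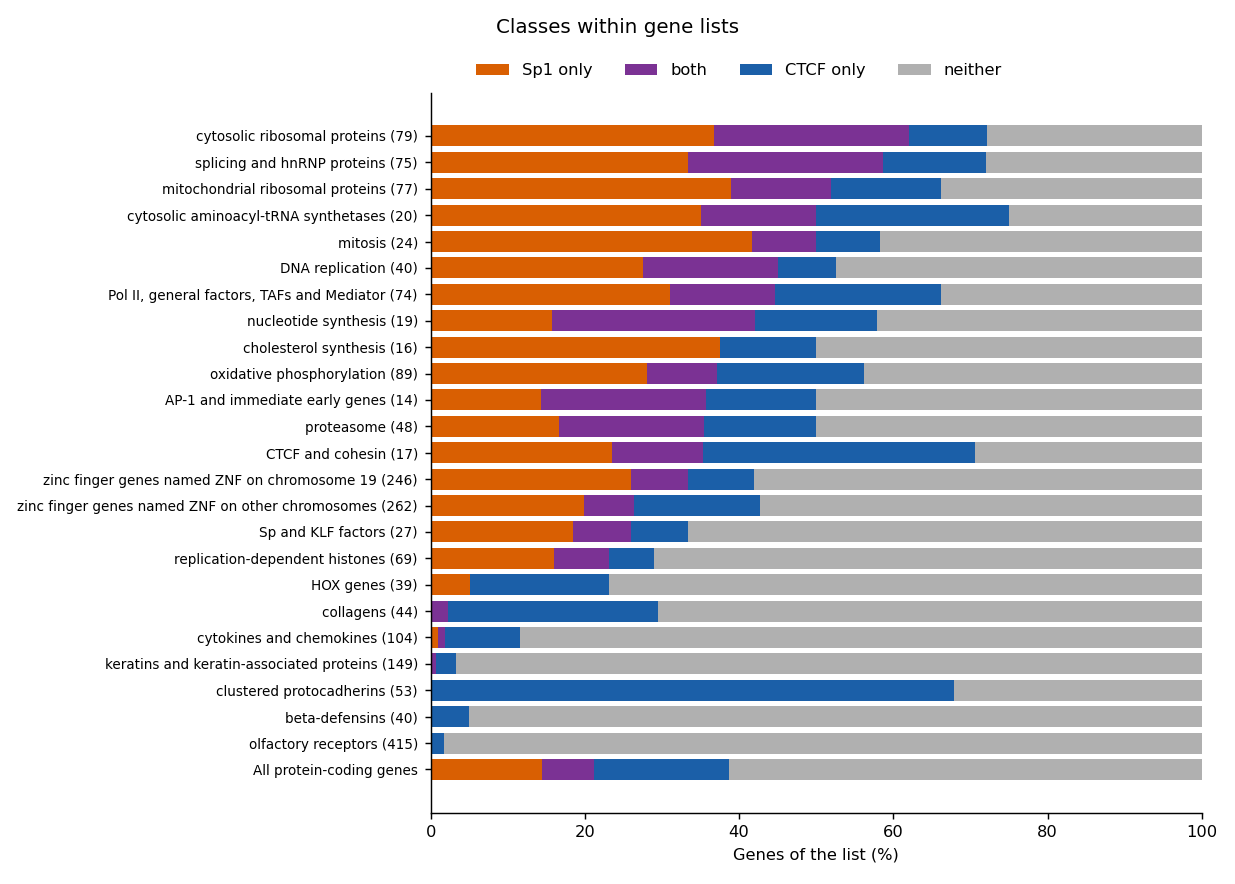
Percentage of genes (horizontal axis) in the classes Sp1 only, both, CTCF only and neither within 24 gene lists, ordered by Sp1 share, with the number of genes in parentheses and all 19970 genes at the bottom. Cytosolic ribosomal protein genes stand at the top, with 49 Sp1 genes of 79, and the clustered protocadherins have 36 of 53 genes in CTCF only.

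The strongest genes of each class were picked by their mean log2 fold over the class lists, so their folds describe these genes and not the libraries. RAD51AP2 had the highest mean fold with Sp1 only, 247 with antibody 1 and 157 with antibody 2, at summits 2 bp apart (peaks at chr2:17517992-17518944 and chr2:17518038-17518971), and no CTCF summit. STAP2 had folds of 202 and 99.7 and GRTP1, a TBC domain protein gene, 167 and 65.5. ERCC6L2, a DNA repair helicase gene, reached 330 with antibody 1 and 18.4 with antibody 2, at summits near different starts. MLEC, an endoplasmic reticulum lectin gene, had 36.9 and 124, and SPATC1L 95.7 and 45.1. AAGAB, a chaperone of adaptor complexes with folds of 157 and 33.9, shared its peaks with IQCH, and GSTCD shared its own with INTS12, an Integrator subunit gene. The GSTCD folds were 18.7 and 218, the reverse order of ERCC6L2, and GSTCD also had a replicate 1 CTCF summit with a fold of 4.63.

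The leading genes with CTCF only, picked the same way, had high folds in both replicates. ACBD4, an acyl-CoA binding protein gene, led with folds of 287 and 156 at a summit in an untranslated exon (chr17:45134981-45135946 in replicate 1). PTPRN had 284 and 143, MYO7A 274 and 149, TMC6 281 and 144, and GRIN2A, an NMDA receptor subunit gene, 304 and 133. DHX8, a splicing helicase gene, had 328 and 111, and RBPJL 314 and 115. Of these 7 genes, ACBD4, PTPRN and GRIN2A also had an antibody 1 summit with folds between 3.58 and 10.1, and DHX8 an antibody 2 summit with a fold of 6.17.

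With both targets, most leading genes, also picked by mean fold, had a far higher fold with 1 antibody than with the other. Folds are comparable within a library only. Each lower fold still reached the median of this class in its library, 11.7 for antibody 1 and 7.11 for antibody 2. DMAP1, a subunit gene of the TIP60 complex, had Sp1 folds of 18.1 and 289, VPS51, a vesicle tethering subunit gene, 20.3 and 219, and SF3A3 12.8 and 134. CDK12 had 392 and 7.36. RFX2 had 416 and 13.8, but at antibody summits near different starts, so these folds belong to different sites. GFI1B, a blood transcription factor gene, with 67.3 and 22.7, and SLC12A5, a neuronal chloride transporter gene, with 38.7 and 22.1, were closer. The CTCF folds of DMAP1 were 95.04 and 69.9, those of VPS51 147 and 92.9, those of RFX2 124 and 60.6 and those of CDK12 111 and 53.6. ENPP3, a nucleotidase gene, and MED23, a Mediator subunit gene, shared peaks with Sp1 folds of 11.8 and 144 and CTCF folds of 222 and 108. The distance between the strongest antibody 1 and replicate 1 summits was 14.3 kb in VPS51, 4.46 kb in DMAP1, 86.7 kb in CDK12 and 33.1 kb in GFI1B. It was 108 bp in ENPP3 and 915 bp in SLC12A5. Of the 8 leading genes with both targets, 5 thus had their strongest Sp1 and CTCF summits at different places of the gene. VPS51, RFX2, DMAP1 and SLC12A5 had further summits in these lists, which these distances do not use.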

How the data were processed

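ChIP-seq peak lists of 2 Sp1 antibodies, 1 IgG control and 2 CTCF replicates in U-2 OS cells were used, and the 3 input libraries served no comparison here. Per the labels, tools in the authors' processing notes include Cutadapt 2.6, Bowtie2 2.4.5, SAMtools 1.15.1, deepTools 3.5.4, MACS2 2.2.7.1 and bedtools 2.27.1, with reads on hg38 and peaks called per library. Each deposited peak carries an interval, a fold enrichment that the authors computed as a linear ratio over control, the authors' −log10 p-value and −log10 q-value, a deposited score that was not used, and a summit. Which control entered the deposited lists is not given in the sources used here.

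Genes and starts came from GENCODE release 44. A gene's fold in a list was that of the strongest summit within 1 kb of a start. The CpG ratio and motifs were computed on both strands from 250 bp before to 50 bp after the canonical start, and summit motifs within 50 bp, with Python 3.11.15, NumPy 2.4.6, SciPy 1.17.1 and pysam 0.24.0. The CTCF core is a 12-base consensus, with 1 mismatch allowed. Shares carry 95% Wilson intervals and medians order-statistic intervals, which cover counting error only. Without Sp1 replicates no p-value was computed. The class and motif steps were tested on simulated data. Named genes were the 8 per class with the highest mean log2 fold over the class lists, leaving out peaks that overlap IgG peaks, all members of the nucleotide synthesis, CTCF and cohesin and Sp and KLF lists, and the strongest member per class of the other lists. The members, lists and strata were chosen with earlier results of these data known. A few items are not reported here. The alternatives changed the distance, the starts, the threshold, the lists, the overlap, the window and the motif.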

Additional observations from a re-analysis of the deposited data

How the results depend on the processing

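Of 144 alternative values, 82 stayed near the reported ones and 62 moved further. Near means within 1.5 times for a count of genes or a ratio of shares, and within the reported interval for other values. Only the ratio of shares was checked for a change of direction, and it kept its direction in each of these alternatives. The strata by start number and CpG ratio were not among them. With 8 or more starts and a CpG ratio over 0.6 the ratio was 0.964. Counts within 1.5 times could still leave their interval, as with CTCF only, which went from 3504 genes to 2662 within 500 bp and 4485 within 2 kb. The CTCF share of Sp1 genes and that of the other genes, 31.6% and 22.3%, became 24.5% and 16.6% within 500 bp, 38.6% and 28.8% within 2 kb, 52.1% and 40.7% within 5 kb, 21.8% and 14.1% at 1 canonical start, 26.9% and 18.0% at starts of protein-coding transcripts, 7.44% and 4.53% with lists cut to equal length, 34.3% and 24.3% by interval overlap, and 43.1% and 26.4% with either list of a target. The ratio of both shares stayed between 1.22 and 1.64 over these alternatives, which do not include the strata. Without the second antibody the other genes stood at 20.3%. Leaving out genes with both targets whose antibody 1 and replicate 1 summits shared no start gave 27.1% for the remaining Sp1 genes. This alternative was chosen after seeing the data, as were the joint strata and the canonical start by CpG ratio. With 1 CTCF replicate left out, the share was 32.6% to 42.5% for Sp1 genes and 22.8% to 29.8% for the other genes, with the higher values without replicate 2.

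Genes with CTCF only and both became 6201 and 2460 within 5 kb, 2285 and 826 at 1 canonical start, and 737 and 275 with lists of equal length. Genes with Sp1 only and both became 4596 and 3477 with either list of a target, and 5172 and 2309 with antibody 1 alone. With the summit nearest to a start, median folds were 11.1 for antibody 1 with both, 36.2 with CTCF only and 31.8 with both in replicate 1, and 18.5 and 16.6 in replicate 2, and the antibody 2 medians became 7.05 with Sp1 only and 6.91 with both, the other way round. With antibody 2 and replicate 2, the summits were a median of 437 bp apart, 15.8% were within 100 bp and 76.3% shared a start.

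In a window of 500 bp on each side of the start, for Sp1 only, CTCF only, both and neither in turn, median GC content was 61.6%, 64.5%, 63.2% and 59.8%, the CpG ratio 0.767, 0.770, 0.766 and 0.662, so that CTCF only was no longer the lowest of the classes with a target, the GC box share 93.4%, 84.7%, 94.1% and 68.8%, and the CTCF core share 9.78%, 24.3%, 20.5% and 10.4%. The longer GC box GGGGCGGGG gave 30.7%, 26.8%, 31.96% and 21.6%, and the exact core 0.0691%, 1.80%, 1.19% and 0.106%.

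No paired analysis was possible because the Sp1 libraries carry no replicate numbers shared with CTCF and no result came from a test. Each Sp1 antibody has 1 library, the targets come from different lines and runs, and read depth was not used. Using antibody 1 alone changed the counts of Sp1 only and both by over 1.5 times.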
